A study of Mus musculus with 8 samples.

Results

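Genes whose symbol marks a potassium channel subunit or one of its partners were followed in the open chromatin of mouse cortical microglia. The members were all peaks assigned to a gene symbol starting with Kcn, then letters, then a number, which gave 358 peaks of 79 genes out of 104981 peaks and 18207 genes in the series. The IL-33 group was 4 mice at postnatal day 30 that received interleukin-33 into the ventricle of one side of the brain, and the vehicle group was 4 mice of the same age that received vehicle the same way. Tissue was taken 4 hours later, microglia were sorted from the cortex, and each group held 2 females. No allele, strain or transgene is named in the labels, and the value columns name the treatment but not the mouse, so sex was not separated. ATAC-seq reads accessible DNA through the cuts of a transposase, so a higher value means more cuts in a peak and is not a measure of transcript or of current.

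Potassium channels let potassium leave or enter the cell along its gradient and so set the membrane potential. Voltage-gated channels open on depolarisation, inward rectifiers hold the potential near rest, tandem-pore channels carry a background leak, and calcium- or sodium-activated channels respond to those ions inside the cell. In microglia, the tandem-pore channel of Kcnk13 carries most of the resting leak and supports process movement, the inward rectifier of Kcnj2 and the voltage-gated channel of Kcna3 dominate different activation states, and the calcium-activated channel of Kcnn4 takes part in migration and oxidative responses. Potassium efflux through such channels, including that of Kcnk6 in macrophages, is a known step before inflammasome activation.

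The 79 genes comprised 31 voltage-gated, 13 inward rectifier, 14 tandem-pore and 7 calcium- or sodium-activated channel genes, 13 genes of accessory subunits and 1 non-coding RNA gene, Kcnq1ot1. The RefSeq gene table listed 97 such symbols, and the other 18, among them Kcna1, Kcnb2, Kcnd2 and Kcnj3, had no peak. A median of 3 peaks was assigned per gene, the same as over all genes. Kcnk13 had the most with 24, followed by Kcnj2 with 23 and Kcnma1 with 22, and 21 genes had 1 peak. Of the 358 peaks, 49 in 37 genes were annotated as promoter-TSS, and the other 309 in 75 genes are called distal here. Distal peaks lay mostly in introns (173) or between genes (105), at a median of 15.3 kb from the assigned start site, against 16.3 kb for all distal peaks of the series. Assignment was to the nearest start site, and 36 peaks lay inside the body of another coding gene only, while 210 lay in the body of their own gene and 112 between coding genes.

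Promoter windows are printed for the genes on which the results below turn: the 3 with a called promoter peak (Kcnk10, Kcnh4 and Kcnj16), and 2 whose distal peaks changed relative to the promoter (Kcnj2 and Kcna3). Each holds 300 bases, mostly upstream of the start site, on the gene's strand, from RefSeq on GRCm38.p6, the assembly of mm10, and capitals mark the bases inside the deposited promoter peak. The windows are chr12:98578164-98578463 (minus strand) for Kcnk10, chr11:100759729-100760028 (minus) for Kcnh4, chr11:110997237-110997536 (plus) for Kcnj16, chr11:111065914-111066213 (plus) for Kcnj2 and chr3:107035912-107036211 (plus) for Kcna3.
Kcnk10: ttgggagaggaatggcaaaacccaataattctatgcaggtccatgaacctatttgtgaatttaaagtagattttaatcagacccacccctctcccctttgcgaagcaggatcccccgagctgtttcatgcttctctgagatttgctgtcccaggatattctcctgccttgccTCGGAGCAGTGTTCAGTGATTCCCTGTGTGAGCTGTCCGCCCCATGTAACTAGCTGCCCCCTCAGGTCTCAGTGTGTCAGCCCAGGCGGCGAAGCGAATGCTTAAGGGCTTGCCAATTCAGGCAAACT
Kcnh4: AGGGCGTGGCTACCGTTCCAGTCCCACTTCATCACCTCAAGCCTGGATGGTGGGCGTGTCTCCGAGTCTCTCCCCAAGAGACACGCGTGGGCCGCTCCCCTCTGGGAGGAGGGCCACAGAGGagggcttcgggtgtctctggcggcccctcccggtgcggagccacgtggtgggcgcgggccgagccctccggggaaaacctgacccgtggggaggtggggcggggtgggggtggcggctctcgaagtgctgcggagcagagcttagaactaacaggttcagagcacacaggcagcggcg
Kcnj16: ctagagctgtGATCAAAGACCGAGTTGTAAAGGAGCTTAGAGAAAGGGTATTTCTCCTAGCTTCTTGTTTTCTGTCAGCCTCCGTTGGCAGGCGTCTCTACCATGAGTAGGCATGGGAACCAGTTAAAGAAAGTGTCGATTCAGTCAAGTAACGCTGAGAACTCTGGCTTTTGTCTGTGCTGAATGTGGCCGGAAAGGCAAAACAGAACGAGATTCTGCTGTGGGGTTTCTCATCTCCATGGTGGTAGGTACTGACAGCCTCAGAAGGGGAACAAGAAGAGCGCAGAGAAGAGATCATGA
Kcnj2: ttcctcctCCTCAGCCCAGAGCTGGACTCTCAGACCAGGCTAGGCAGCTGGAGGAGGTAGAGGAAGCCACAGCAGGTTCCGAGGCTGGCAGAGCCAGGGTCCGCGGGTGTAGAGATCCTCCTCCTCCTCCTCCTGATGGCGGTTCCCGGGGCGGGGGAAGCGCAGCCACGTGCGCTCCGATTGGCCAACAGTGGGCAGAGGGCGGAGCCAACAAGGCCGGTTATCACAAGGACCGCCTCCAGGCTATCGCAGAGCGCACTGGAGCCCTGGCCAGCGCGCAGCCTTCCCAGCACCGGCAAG
Kcna3: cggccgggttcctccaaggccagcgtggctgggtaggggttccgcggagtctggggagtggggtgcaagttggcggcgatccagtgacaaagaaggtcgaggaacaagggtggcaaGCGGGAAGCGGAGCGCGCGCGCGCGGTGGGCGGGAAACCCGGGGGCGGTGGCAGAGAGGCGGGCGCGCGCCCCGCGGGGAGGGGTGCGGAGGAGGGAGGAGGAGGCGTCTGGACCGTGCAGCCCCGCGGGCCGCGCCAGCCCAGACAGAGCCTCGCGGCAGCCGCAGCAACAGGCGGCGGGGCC
The peak covered 128 of 300 bases in Kcnk10, 122 in Kcnh4, 290 in Kcnj16, 292 in Kcnj2 and 184 in Kcna3. The 3 called windows differ in base composition: GC made up 51.0% of the Kcnk10 window, 68.7% of the Kcnh4 window and 48.0% of the Kcnj16 window.

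Words of 6 kinds of regulators of myeloid genes were searched on both strands of 83 such windows of 59 member genes and of all 32851 windows in the table. The AP-1 word TGANTCA was in 4.8% of member windows against 7.8% of all, the NF-kB words GGGANTTTC or GGGANTTCC in 0 of 83 against 2.8%, and the C/EBP word TTGCNNAA in 8.4% against 10.8%. The PU.1 word GAGGAAG was in 15.7% against 13.6%, the IRF word GAAANNGAA in 10.8% against 8.6%, and the MEF2 word CTANNNNTA in 10.8% against 21%. The windows printed for Kcnk10, Kcnh4, Kcnj16 and Kcna3 hold none of these words, and that of Kcnj2 holds the PU.1 word once, at base 60 and inside the peak. A gene can have several windows that overlap, and a word in a window is a description only.

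Values are tags per 10000000 tags of a library, and libraries held 35842688 to 43857673 tags. In IL-33 library 2, 14.2% of tags fell in peaks, against 22.0 to 31.3% in the other 3 IL-33 libraries and 20.8 to 27.9% in the 4 vehicle libraries, so its values were low at most peaks and the values were not rescaled for this. Summed promoter levels of 10 microglial marker genes, 8 of which had a promoter peak, ran from 293 to 632 tags in IL-33 libraries and from 486 to 696 in vehicle libraries. Promoter peaks were at hand for 2 of 10 neuronal markers (13.6 to 42.1 tags in IL-33 and 29.7 to 41.0 in vehicle libraries), 3 of 7 astrocyte markers (11.1 to 44.9 and 24.04 to 39.3) and 4 of 8 oligodendrocyte lineage markers (36.8 to 89.8 and 52.6 to 61.0). They were at hand for 4 of 7 endothelial and mural markers (40.3 to 93.2 and 89.0 to 126 tags, IL-33 first), 2 of 6 border macrophage or monocyte markers (29.0 to 81.5 and 45.2 to 67.7), 2 of 5 neutrophil markers (8.72 to 28.8 and 22.0 to 28.5) and 0 of 5 lymphocyte markers. The endothelial sum was lower in IL-33 libraries with little overlap, and most of it came from Kdr (means of 47.53 tags in IL-33 and 80.85 in vehicle libraries). Pecam1 (11.24 and 18.51) and Pdgfrb (6.46 and 9.83) were also lower, and Flt1 was higher (4.08 and 2.67). The part of other cells in the results below was not tested. In bulk samples, fewer cells of a type and less open chromatin per cell cannot be told apart.

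Peaks of potassium channel genes changed in both directions after IL-33. Of 312 member peaks that passed the filter on low values, 22 were higher and 32 lower (limma, adjusted p under 0.05 over all 94480 peaks), and 46 were not tested. The shares were 7.05% higher and 10.3% lower among member peaks, against 8.53% higher and 4.99% lower among all peaks tested. The share of raised peaks was thus near that of the series, and the share of lowered ones was larger. The median log2 change was -0.22 for member peaks and -0.14 for all peaks, and with median-ratio scaling of the libraries -0.13 and -0.05. All but 3 of the called peaks were distal, and among tested distal peaks 20 of 267 were higher (7.49%, against 9.70% of all distal peaks) and 31 of 267 lower (11.6%, against 5.70%). The potassium channel peaks held 0.213, 0.211, 0.216 and 0.218% of the tags in peaks in IL-33 libraries, and 0.224, 0.230, 0.229 and 0.229% in vehicle libraries. This share did not overlap between the groups. Of the 54 called peaks, 29 were lost in no alternative that tested them and 25 in 1 or more. The authors' merged peak set took 260 member peaks from the lists of both groups, 49 from the IL-33 list alone and 49 from the vehicle list alone. Of the raised peaks 12 (54.5%, against 59.9% of all raised peaks) were from the IL-33 list alone, and of the lowered ones 8 (25%, against 27.7%) from the vehicle list alone. These lists were made on the same libraries.

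**Figure D1:**
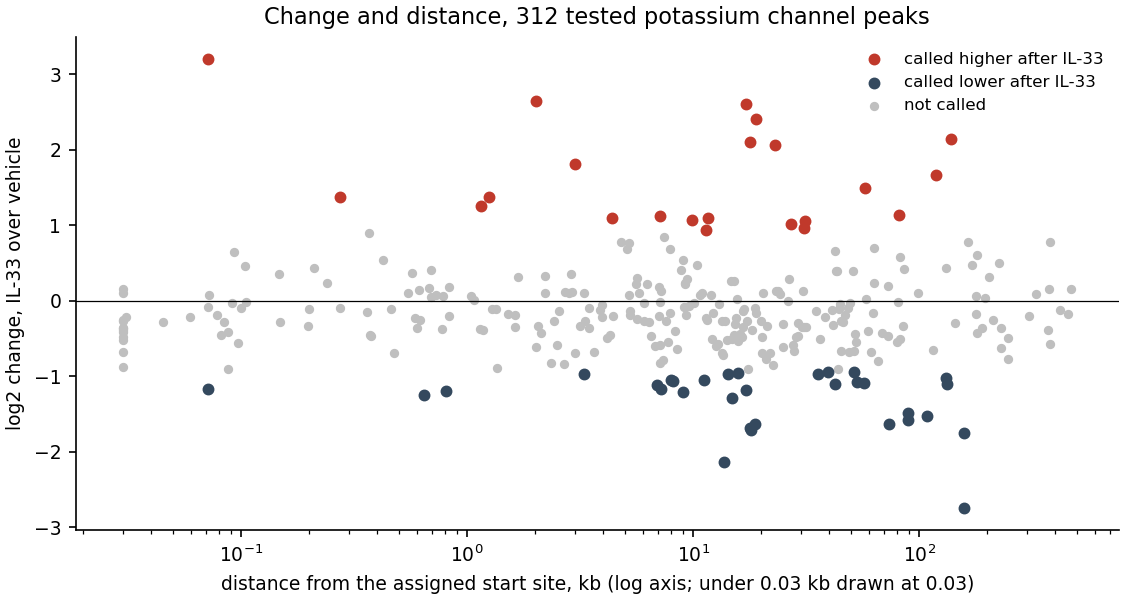
Log2 change after IL-33 over vehicle of the 312 tested potassium channel peaks (vertical) against the distance from the assigned start site in kb (horizontal, log axis), with called peaks coloured. The 22 raised and 32 lowered peaks lie from beside the start site to 158.2 kb away, and Kcnk10 supplies the highest point at 3.20.

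By family, the voltage-gated genes had 5 raised and 12 lowered of 97 tested peaks, the tandem-pore genes 4 and 10 of 64, the inward rectifiers 5 and 4 of 56, the accessory subunits 4 and 5 of 53, and the calcium- or sodium-activated channels 4 and 1 of 38. In the same order, the raised shares were 5.15, 6.25, 8.93, 7.55 and 10.5%, against 8.53% of all tested peaks. The lowered shares were 12.4, 15.6, 7.14, 9.43 and 2.63%, against 4.99%. The median log2 change was lowest for accessory (-0.28) and voltage-gated genes (-0.27) and highest for calcium- or sodium-activated genes (-0.02). These shares and medians describe the families, and no difference between families was tested.

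Summed over all peaks of a gene, 3 of 62 tested members rose and 5 fell, with 17 not tested. Kcnh4, Kcnk10 and Kcnip1 rose, and Kcnk2, Kcnd3, Kcnq3, Kcnj16 and Kcnh7 fell. Among all 16386 genes, 1.46% rose and 1.23% fell. The standard error of a gene's log2 change was 0.28, common to all genes, because limma shrank each gene to one spread. The same held for peaks (0.338), promoter sums (0.264) and distal sums (0.282). The p-values at these levels thus rest on a spread pooled over features and not on a feature's own spread between libraries.

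**Figure D2:**
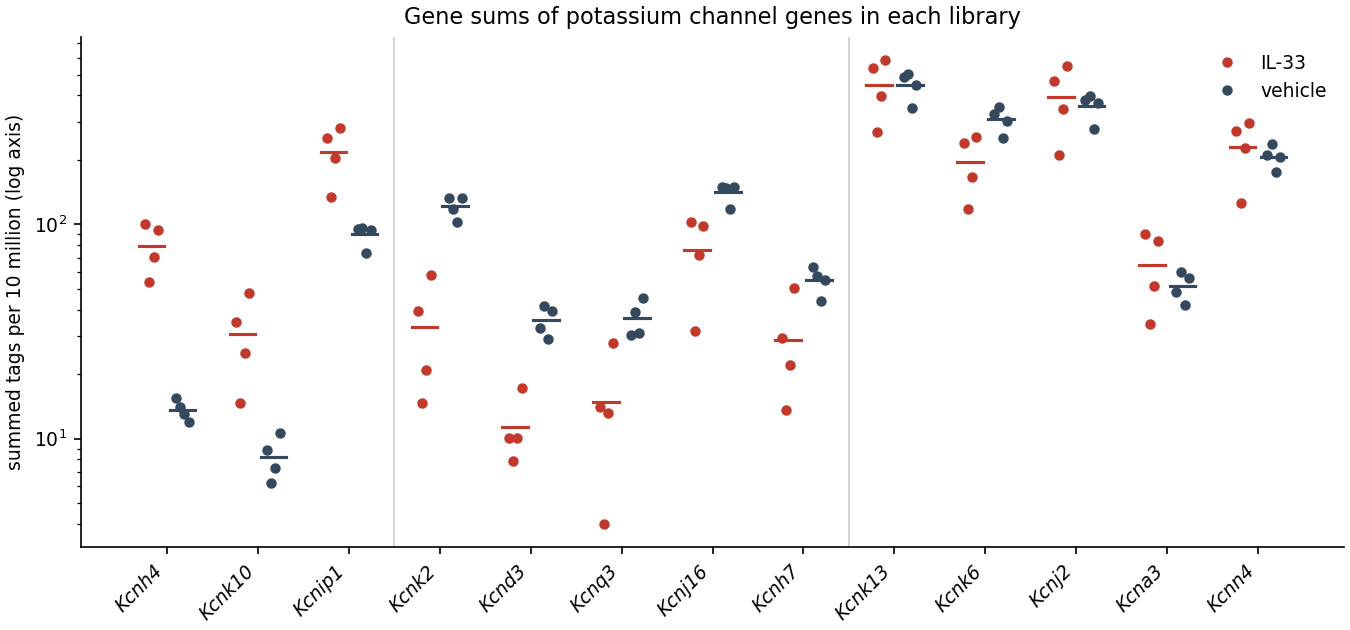
Summed tags per 10000000 of 13 potassium channel genes in each of 4 IL-33 libraries (red, left) and 4 vehicle libraries (dark, right), on a log axis, with bars at group means. The first 3 genes were called higher and the next 5 lower, and the 5 genes best known in microglia or macrophages overlap between the groups.

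Kcnh4, a voltage-gated channel gene of the ether-a-go-go family, had the largest rise. Its sum was 100.7, 53.6, 70.7 and 93.8 tags in IL-33 libraries and 15.5, 14, 13.1 and 12 tags in vehicle libraries. Every IL-33 library was more than 3 times above every vehicle library. The log2 change was 2.15 (adjusted p = 2.8e-11, limma), with means of 79.7 ± 21.6 and 13.6 ± 1.47 tags (SD, n = 4 each). Both of its peaks rose. The exonic peak, 2.0 kb from the start site (chr11:100757616-100757929, mm10), had 84.1, 42.4, 60.9 and 81.9 tags in IL-33 libraries and 9.85, 11.4, 9.01 and 7.95 tags in vehicle libraries. The promoter peak, whose bases are capitals in the window above, had 16.6, 11.2, 9.81 and 11.9 tags with IL-33 and 5.63, 2.64, 4.10 and 4.05 tags with vehicle (log2 change 1.37, adjusted p = 0.000905). The nearest coding gene to the exonic peak, other than Kcnh4, was Hcrt at 3.9 kb.

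Kcnk10, a tandem-pore channel gene of the mechano- and lipid-sensitive branch, rose at a promoter peak. That peak (chr12:98577994-98578291) had 21.5, 8.25, 13.5 and 26.9 tags in IL-33 libraries and 0.13, 0.66, 1.94 and 0.56 tags in vehicle libraries, where 3 reads were worth 0.342 to 0.418 tags. The lowest vehicle value is that of 1 read, and no vehicle library came near an IL-33 library. The log2 change of 3.20 (adjusted p = 1.4e-18, limma) was the largest of any tested member peak, and it understates the change because a pseudocount of 1.155 tags was added. The filter kept peaks by their mean over all libraries, the lowest kept being 4.3 tags. The peak was thus tested only through its IL-33 values. The other Kcnk10 peak, in an intron, averaged 13.2 ± 5.92 tags in IL-33 and 7.41 ± 2.33 tags in vehicle libraries and was not called (log2 change 0.68, adjusted p = 0.19). The gene sum rose by 1.35 on the log2 scale (adjusted p = 0.000223). Its vehicle mean of 8.24 tags was under 10.29 tags, the lowest gene mean kept. The sum too was thus tested only through its IL-33 values.

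Kcnip1 encodes a calcium-binding partner of the transient outward voltage-gated channels. Its sum was 254, 134, 204 and 281 tags in IL-33 libraries and 94.8, 96.6, 73.6 and 94.2 tags in vehicle libraries, and every IL-33 library was higher (log2 change 1.19, adjusted p = 0.00201). At 17.2 to 19.0 kb from the start site, 3 peaks rose. The middle one (chr11:34010836-34011148) had 108, 50.3, 91.8 and 121 tags with IL-33 and 26.5, 27.9, 17.8 and 11.3 tags with vehicle. The outer 2, with log2 changes of 2.60 and 2.40, averaged 34.9 and 47.7 tags in IL-33 and 4.51 and 8.33 tags in vehicle libraries. Another peak, 15.8 kb from the start site, fell (7.05 ± 3.05 tags in IL-33 and 14.2 ± 0.896 in vehicle, adjusted p = 0.0359), but its call ended in 8 of 18 alternatives, among them leaving out IL-33 library 3 or 4 or any 1 vehicle library. All 4 lay in an intron of the long non-coding gene 4930469K13Rik, outside the body of Kcnip1, and the 3 raised ones were 34.8 to 36.5 kb from Lcp2. Lcp2 encodes an adaptor protein of immune receptor signalling. Kcnmb1, an accessory subunit gene of the large-conductance calcium-activated channel, had 1 raised peak (log2 change 0.96), inside the body of Kcnip1, whose call ended in 9 alternatives, among them leaving out any 1 library except IL-33 library 2.

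Kcnk2, the tandem-pore channel gene related to Kcnk10, had the largest fall. Its sum was 39.5, 14.7, 20.9 and 58.1 tags in IL-33 libraries and 133, 118, 103 and 133 tags in vehicle libraries, with no overlap (log2 change -1.86, adjusted p = 2.4e-08). It had 3 peaks, all called lower and none annotated as promoter-TSS. That with the largest fall (chr1:189185308-189185580) had 12.5, 3.54, 6.37 and 21.9 tags with IL-33 and 73.6, 63.4, 60.5 and 74.2 tags with vehicle. It and the second, log2 change -1.75, lay 22.5 and 22.8 kb beyond the body of the gene and 157.9 and 158.2 kb from its start site, and the nearest other coding gene, Kctd3, was 177.5 and 177.2 kb away. The third was in an exon, where the groups overlapped (17.03 ± 10.1 tags in IL-33 and 34.0 ± 6.42 in vehicle, log2 change -1.11). The related pair Kcnk2 and Kcnk10 thus moved in opposite directions, each in its own sum, that of Kcnk10 tested only through its IL-33 values.

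Kcnd3, a voltage-gated gene of the transient outward current, had 10.1, 7.89, 10.1 and 17.2 tags in IL-33 libraries and 32.8, 41.8, 29.1 and 39.6 tags in vehicle libraries (log2 change -1.34, adjusted p = 0.000254). The groups did not overlap. All 3 of its tested peaks fell, by 1.48 to 1.58 on the log2 scale. They lay in an intron 89.2 to 108.0 kb from the start site, and 2 of them were neighbours. All 4 Kcnd3 peaks together averaged 11.3 tags in IL-33 libraries. The 3 tested peaks thus cannot all have reached 4.3 tags there, the lowest mean kept by the filter. At least 1 of them was tested only through its vehicle values. Kcnq3, a subunit gene of the neuronal M current, had 14.03, 4.01, 13.1 and 27.9 tags in IL-33 and 30.6, 39.0, 31.1 and 45.2 tags in vehicle libraries (log2 change -1.20, adjusted p = 0.00181), also without overlap. Of its 3 peaks, 1 in an intron was called lower at -2.13. The call of the sum ended without vehicle library 4 and with 4 times the pseudocount.

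Kcnj16, an inward rectifier subunit gene that pairs with Kcnj10, was the only member whose promoter sum was called. Its promoter had 48.6, 12.6, 36.2 and 44.0 tags in IL-33 libraries and 79.1, 76.4, 58.1 and 78.5 tags in vehicle libraries, with no overlap (log2 change -1.06, adjusted p = 0.00722). The call was lost without vehicle library 1, 2 or 4, each time with the same direction. The gene sum fell by 0.96 on the log2 scale (adjusted p = 0.0274), a call that ended without IL-33 library 3 or vehicle library 1, 2 or 4 and in edgeR with total tags. Kcnh7, another ether-a-go-go family gene, has 1 peak, at 29.5, 13.7, 22.2 and 50.6 tags in IL-33 and 62.9, 57.5, 44.1 and 54.8 tags in vehicle libraries, where the highest IL-33 library overlapped vehicle (log2 change -0.92, adjusted p = 0.0395). Its call ended in 5 of the 8 fits that left out 1 library (IL-33 library 3 or any vehicle library), with 4 times the pseudocount, without the lowest 25% of means and in edgeR with total tags.

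Few promoter sums were called. Of 27 promoter sums tested, 0 rose and 1 fell, and 10 were not tested, among them those of Kcnk10 and Kcnh4, whose peaks were called above. Among all 10886 genes with a tested promoter, 0.818% rose and 0.615% fell. At an unadjusted p under 0.05, 0 promoter sums were higher and 1 lower in limma, and the share of all promoters at that threshold was not counted. At an adjusted p under 0.05 on recovered reads, DESeq2 called 1 higher and edgeR with TMM sizes 0, against 8.11% and 6.13% of all promoters. They called 4 and 1 lower, against 6.93% and 4.13% of all promoters. Median-ratio scaling called 0 higher and 4 lower, against 3.96% and 12%. The median log2 change was -0.25 for the members and -0.21 for all promoters.

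**Figure D3:**
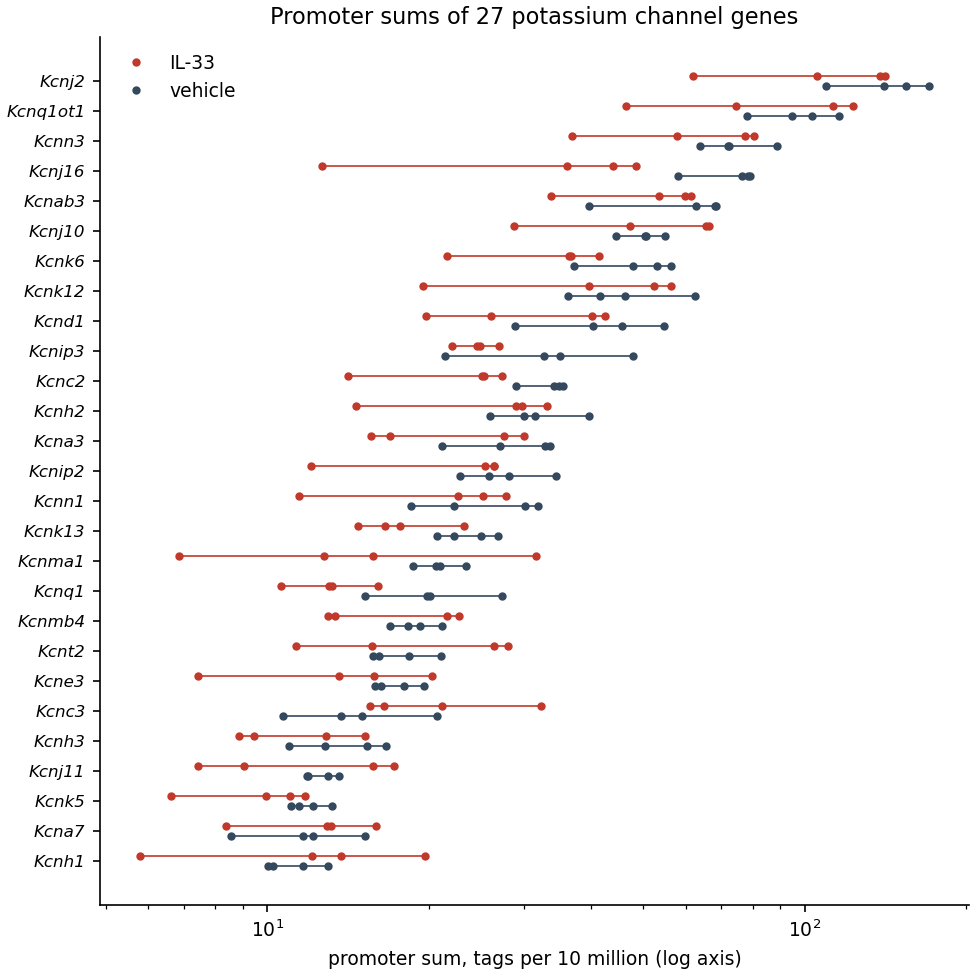
Promoter sums in tags per 10000000 (log axis) of the 27 tested potassium channel genes in 4 IL-33 libraries (red, upper) and 4 vehicle libraries (dark, lower), with lines over the range. Kcnj16 and Kcnc2 are the genes whose groups do not overlap.

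The promoters next described are, beside that of Kcnj16, the 3 with the largest vehicle sums in each family. That of Kcnj2 had 138, 62.0, 105 and 141 tags in IL-33 and 154, 171, 110 and 141 tags in vehicle libraries (log2 change -0.40, adjusted p = 0.76). Kcnq1ot1, the antisense transcript gene of the imprinted Kcnq1 region, averaged 89.2 ± 35.3 tags in IL-33 and 98.0 ± 15.7 in vehicle libraries, and Kcnn3, of a small-conductance calcium-activated channel, 63.2 ± 20.2 and 74.3 ± 10.4. Promoters of Kcnab3 (52.2 ± 12.7 tags in IL-33 and 59.8 ± 13.7 in vehicle) and Kcnj10 (52.0 ± 17.8 and 50.1 ± 4.23) overlapped between the groups. So did those of Kcnk6 (34.0 ± 8.63 tags in IL-33 and 48.6 ± 8.31 in vehicle), Kcnk12 (41.9 ± 16.6 and 46.7 ± 11.2), Kcnd1 (32.1 ± 11.0 and 42.4 ± 10.8), Kcnip3 (24.6 ± 2.04 and 34.3 ± 10.9) and Kcnh2 (26.6 ± 8.21 and 31.8 ± 5.72). Those of Kcnip2 (22.5 ± 7.02 tags in IL-33 and 27.8 ± 4.93 in vehicle) and Kcnn1 (21.8 ± 7.20 and 25.7 ± 6.36) overlapped too. The Kcnc2 promoter, at 22.998 ± 5.99 tags in IL-33 and 33.4 ± 2.92 in vehicle libraries, did not overlap between the groups. None of these was called in the main test. Those of Kcnc2, Kcnk6 and Kcnj2 were called lower under median-ratio scaling (limma, adjusted p = 0.013, 0.017 and 0.022). DESeq2 called the same promoters lower (adjusted p = 0.042, 0.034 and 0.024). The Kcnk13 promoter had 18.03 ± 3.65 tags in IL-33 and 23.7 ± 2.75 in vehicle libraries, and that of Kcnma1, of the large-conductance calcium-activated channel, 16.7 ± 10.6 and 20.9 ± 1.92, also not called and with overlap.

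Distal sums rose in 2 of 63 tested members and fell in 6, against 3.24% higher and 2.17% lower among all 14404 genes. Kcnh4 (2.28) and Kcnip1 (1.19) rose on the log2 scale. Kcnk2, Kcnd3, Kcnq3 and Kcnh7 fell as their gene sums did, having no promoter peak. Kcnc2, a voltage-gated gene of fast-spiking neurons, fell to 25.4, 8.01, 14.8 and 25.7 distal tags in IL-33 libraries, against 44.0, 39.9, 38.0 and 42.8 tags in vehicle libraries, with no overlap (log2 change -1.06, adjusted p = 0.0066). Kcnip2, a partner of the same channels as Kcnip1, had 187, 73.4, 125 and 158 distal tags with IL-33 and 254, 263, 195 and 240 tags with vehicle (log2 change -0.85, adjusted p = 0.0466). The Kcnc2 call ended without IL-33 library 3 or vehicle library 1 or 4 and with 4 times the pseudocount. The Kcnip2 call ended without IL-33 library 3 or any 1 of the 4 vehicle libraries, with 0.5 or 4 times the pseudocount, without the lowest 25% of means, with a trended robust prior and in edgeR with total tags. With 4 times the pseudocount the distal calls of Kcnh7 and Kcnq3 ended too. All 4 lowered Kcnip2 peaks lay inside Armh3, a neighbouring gene that held 8 of the 13 peaks assigned to Kcnip2. The calls of those at 39.7 and 57.3 kb from the start site ended in 8 and 4 alternatives.

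Within a library, the distal level of a gene was set against its promoter level, a difference in which a factor common to the whole library largely cancels. Of 24 members tested, this difference rose in 6 (25%) and fell in 2 (8.33%), and over all 8360 genes it rose in 25.6% and fell in 7.03%. Both shares were near those of the series. The medians were 0.15 for the members and 0.14 for all genes.

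**Figure D4:**
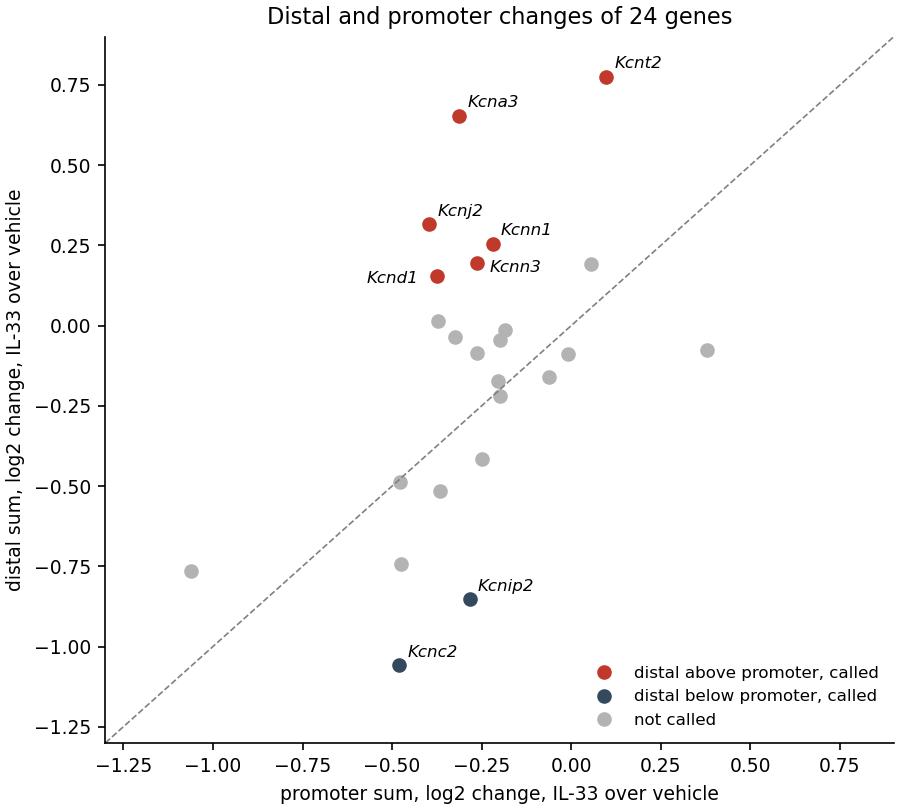
Log2 change after IL-33 over vehicle of the distal sum (vertical) against that of the promoter sum (horizontal) for 24 potassium channel genes, with the line of equal change dashed. The 6 genes whose distal minus promoter difference was called higher lie above the line, and Kcnip2 and Kcnc2, called lower, lie below it.

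Kcna3 had the largest rise of this difference. Its distal level was 0.89, 0.20, 0.85 and 0.91 log2 units above its promoter level in IL-33 libraries, and stood at -0.29, -0.23, -0.02 and -0.49 in vehicle libraries (change 0.97 ± 0.16 SE, adjusted p = 0.000796). Every IL-33 library was above every vehicle library. With distal peaks taken as those over 3 kb from the start site, or without the lowest 25% of means, Kcna3 was not tested. The 2 peaks that rose lay upstream at 1.2 and 4.4 kb. The nearer had 30.9, 7.78, 19.6 and 28.8 tags in IL-33 and 5.76, 9.12, 7.07 and 8.37 tags in vehicle libraries, where IL-33 library 2 overlapped vehicle. The call at 4.4 kb ended with 4 times the pseudocount and without IL-33 library 4 or vehicle library 2. The promoter (22.5 ± 7.34 tags in IL-33 and 28.7 ± 5.84 in vehicle) and the gene sum (64.7 ± 26.5 and 51.6 ± 8.16) were not called in the main test. The gene sum was called higher under median-ratio scaling (log2 change 0.31, adjusted p = 0.028) and quantile normalization (0.38, adjusted p = 0.0071). It was also called in edgeR with TMM sizes (0.41, adjusted p = 0.012) and DESeq2 (0.41, adjusted p = 0.0017). These called 11.8%, 13.1%, 15% and 16.7% of all genes higher.

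Kcnj2 showed the same split with more peaks. Its difference was 1.23, 1.20, 1.16 and 1.49 log2 units in IL-33 libraries and 0.54, 0.40, 0.60 and 0.68 in vehicle libraries (change 0.71 ± 0.11 SE, adjusted p = 0.00055), without overlap. Of 20 tested Kcnj2 peaks, 3 rose and 0 fell, where 8.53% of all tested peaks rose and 4.99% fell. The strongest rise was between genes at 23 kb (chr11:111089003-111089315), 12.3 kb beyond the gene, with 51.4, 24.1, 25.2 and 51.0 tags in IL-33 and 7.04, 8.98, 5.47 and 9.76 tags in vehicle libraries (log2 change 2.06, adjusted p = 6.2e-08). The other 2, at 27 and 31.2 kb, rose by 1.02 and 1.05 on the log2 scale with overlapping groups, and each call ended without any 1 of 4 libraries (IL-33 library 1 or 4 or vehicle library 2 or 4 at 27 kb, and IL-33 library 1 or 3 or vehicle library 1 or 3 at 31.2 kb). The gene sum of Kcnj2 differed by 0.07 on the log2 scale in the main test (adjusted p = 0.94), where its total did not show these peaks. edgeR with TMM sizes and DESeq2 called this sum higher (0.24 in both, adjusted p = 0.017 and 0.0027), beside 15% and 16.7% of all genes.

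The other 4 raised differences were Kcnt2, a sodium-activated channel gene (0.68 ± 0.13 SE), Kcnd1 (0.53 ± 0.16), Kcnn1, of a small-conductance channel (0.47 ± 0.13), and Kcnn3 (0.46 ± 0.15). The groups overlapped for Kcnn3 and did not for the other 3. The Kcnt2 distal sum averaged 4.69 tags in vehicle libraries, under 6.84 tags, the lowest distal mean kept. Its difference was thus tested only through the IL-33 values of that sum. The call ended without IL-33 library 3 or 4 or vehicle library 2 or 4 for Kcnd1, and without IL-33 library 1, 2 or 3 or vehicle library 1 or 2 for Kcnn3. Both ended under quantile normalization. That of Kcnd1 also ended with distal peaks over 3 kb alone, and that of Kcnn3 with 4 times the pseudocount, no filter or a trended robust prior. The lowered ones were Kcnc2 (-0.58 ± 0.15) and Kcnip2 (-0.57 ± 0.14), both without overlap.

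Single peaks were also called at other channels known from microglia, whose sums were not called in the main test. Over all tested peaks, 8.53% were raised and 4.99% lowered. Kcnk13 had 2 raised and 0 lowered of 21 tested peaks while its sum was 534, 269, 396 and 585 tags in IL-33 and 488, 506, 347 and 449 tags in vehicle libraries (log2 change -0.05, adjusted p = 0.95). The first raised peak, in an intron 3.0 kb from the start site (chr12:99967375-99967600), had 34.8, 16.2, 30.8 and 37.9 tags with IL-33 and 10.1, 8.59, 4.90 and 6.70 tags with vehicle (log2 change 1.80, adjusted p = 3.5e-06). The second, at 57.7 kb, had 7.39, 3.89, 8.53 and 9 tags with IL-33 and 2.94, 1.45, 1.25 and 1.53 tags with vehicle. Neither overlapped between the groups. The second peak had vehicle values under 4.3 tags, the lowest mean kept by the filter, and was tested only through its IL-33 values. Kcnn4 had 1 raised peak of 7 tested (log2 change 1.07, groups overlapping, call lost without IL-33 library 3 or 4 or vehicle library 3 or 4). Its sum of 230 ± 75.9 tags in IL-33 and 207 ± 24.9 in vehicle libraries was not called in the main test. The Kcnn4 sum was called higher under quantile normalization (0.23, adjusted p = 0.031), edgeR with TMM sizes (0.25, adjusted p = 0.0092) and DESeq2 (0.26, adjusted p = 0.0011). These called 13.1%, 15% and 16.7% of all genes higher.

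Kcnk6 showed changes of both signs around its promoter. A peak 1.3 kb from the start site, between genes, had 15.8, 8.72, 5.99 and 12.7 tags in IL-33 and 5.12, 2.77, 2.05 and 3.49 tags in vehicle libraries (log2 change 1.37, adjusted p = 0.000859). In the gene body 4 peaks fell, by 0.98 to 1.21 on the log2 scale, and the call of the one at 3.3 kb ended in 6 of 18 alternatives, median-ratio scaling among them. The calls at 7.2 and 0.8 kb ended in 2 and 1 of them. That in the 3' UTR averaged 22.8 ± 9.26 tags in IL-33 and 51.9 ± 12.4 in vehicle libraries. The sum was 240, 118, 167 and 256 tags in IL-33 and 329, 355, 253 and 305 tags in vehicle libraries, where the highest IL-33 library was just above the lowest vehicle library, and it was not called (log2 change -0.71, adjusted p = 0.21). It fell by 0.61 under median-ratio scaling (adjusted p = 9.4e-05).

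**Figure D5:**
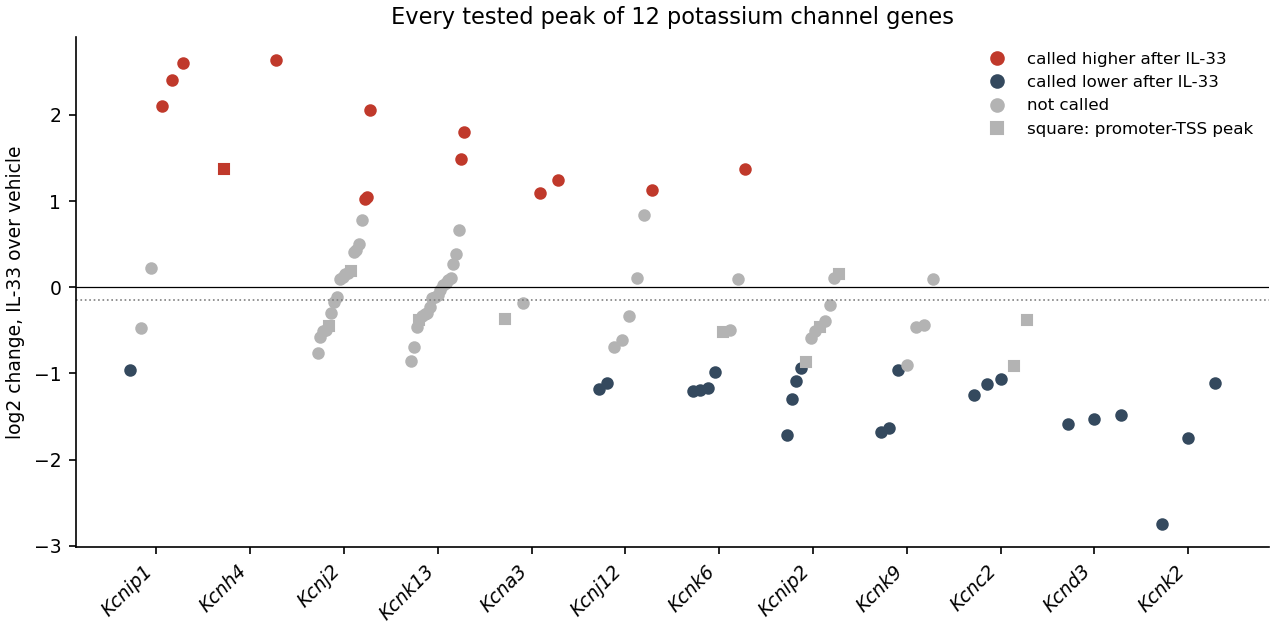
Log2 change after IL-33 over vehicle of every tested peak of 12 potassium channel genes (squares for promoter-TSS peaks), red when called higher and dark when called lower, with the median of all peaks dotted at -0.14. Kcnip1, Kcnj12 and Kcnk6 hold calls of both signs, the lowered one of Kcnip1 lost in 8 of 18 alternatives, while the called peaks of Kcnj2, Kcnk13, Kcna3 and Kcnh4 are all higher and those of Kcnip2, Kcnk9, Kcnc2, Kcnd3 and Kcnk2 all lower.

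Kcnj12, another inward rectifier gene, also had both signs. A peak in its intron averaged 25.3 ± 8.33 tags in IL-33 and 10.6 ± 1.59 in vehicle libraries, while intergenic peaks at 17 and 42.5 kb averaged 5.59 ± 3.12 and 9.71 ± 3.43 in IL-33 libraries and 12.9 ± 1.28 and 21.7 ± 4.18 in vehicle libraries (n = 4 each, no overlap at any of the 3). The call at 42.5 kb ended without IL-33 library 3 or vehicle library 1 or 2. The Kcnj12 sum was not called (log2 change -0.28). Kcnk9, an acid-sensitive tandem-pore channel gene, had 3 lowered peaks in introns, the first at 10.8, 4.01, 7.13 and 12.4 tags with IL-33 and 28.5, 35.1, 26.8 and 23.4 tags with vehicle (log2 change -1.68, adjusted p = 1.9e-05). The call at 14.2 kb ended in 9 of 18 alternatives, among them leaving out IL-33 library 3 or 4 or any 1 vehicle library. The Kcnk9 sum overlapped between the groups and was not called in the main test (log2 change -0.69, adjusted p = 0.24). It was called lower under median-ratio scaling, quantile normalization, edgeR with TMM sizes and DESeq2, which called 11.5 to 15.6% of all genes lower.

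Other raised peaks belonged to Kcnn2, of a small-conductance channel, at 138.2 kb from the start site (19.6 ± 9.91 tags in IL-33 and 3.19 ± 0.938 in vehicle, log2 change 2.14), and to Kcnma1 at 118.5 kb (13.1 ± 6.76 and 3.05 ± 0.937, log2 change 1.67). The groups did not overlap at either peak. Both had vehicle means under 4.3 tags, the lowest mean kept by the filter, and were tested only through their IL-33 values. The Kcnn2 peak lay in the non-coding gene A330093E20Rik. A Kcnq1 intron peak fell to 3.53 ± 2.10 tags in IL-33 libraries, against 12.98 ± 4.84 in vehicle libraries. Raised peaks of Kcna4 (log2 change 1.13) and Kcnt2 (1.09) overlapped between the groups, and the calls ended in 6 and 3 alternatives.

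A list of 27 genes that handle potassium beside the channels or act downstream of its efflux was read for comparison, namely pump subunits, chloride cotransporters, auxiliary subunits, purinergic receptors and inflammasome genes. A peak was found for 24, and of the 20 tested gene sums 0 rose and 0 fell (limma, the same background of 1.46% and 1.23%). At an unadjusted p under 0.05, 1 was higher and 0 lower. The share of all genes at that threshold was not counted, so nothing is read from these counts. edgeR with TMM sizes and DESeq2 each called 7 higher and 1 lower of 20, where edgeR called 15% of all genes higher and 11.5% lower and DESeq2 16.7% and 13.2%. The median log2 change was -0.13, against -0.17 for all genes. P2rx7, the ATP-gated channel through which potassium leaves macrophages, had 213 ± 56.3 tags in IL-33 and 228 ± 32.7 in vehicle libraries, and Nlrp3, the sensor of the inflammasome, 283 ± 68.5 and 266 ± 45.5. Under median-ratio scaling 4 were higher and 1 lower, against 11.8% and 15.6% of all genes, among them the proton channel gene Hvcn1 (0.58, 436 ± 103 tags in IL-33 and 307 ± 44.0 in vehicle as deposited) and the potassium-chloride cotransporter gene Slc12a7 (0.42, 386 ± 119 and 297 ± 26.5).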

How the data were processed

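Per the file headers, the authors annotated merged reproducible (IDR) peaks with HOMER on mm10 and kept no more than 3 tags at a position. The values they deposited are a signal, scaled to 10000000 tags in each library. Bowtie2, HOMER and DESeq2 are named, with no version, in the submitters' processing notes. Trimming, duplicate removal and any transposase shift are not given in the sources used here. Values were whole multiples of 1 read, within 0.006 tags, for 100.0% of values, and edgeR 4.0.16 and DESeq2 1.42.0 were run on these reads as alternatives, with limma 3.58.1 in R 4.3.3 as the main test (two-sided, Benjamini-Hochberg over all features, threshold 0.05).

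Levels were log2(tags + 1.155) for peaks and log2(sum + 5) for gene, promoter and distal sums, which understates changes of weak features. The lowest 10% of means over all libraries were left out, and the lowest peak mean kept was 4.3 tags. A peak under that level in 1 group could pass through the other group alone. Among called peaks this held for the raised promoter peaks of Kcnk10 and Kcnh4 and for raised peaks of Kcnn2, Kcnma1, Kcnk6 (1.3 kb) and Kcnk13 (57.7 kb). It also held for the lowered Kcnq1 peak and for some of the lowered Kcnd3 peaks, and other peaks were not checked for it. Among called sums it held for the Kcnk10 gene sum, where the lowest mean kept was 10.29 tags. In the called Kcnt2 difference it held for the distal sum, where the lowest mean kept was 6.84 tags. Distal means every peak not annotated promoter-TSS. Depth was 35842688 to 43857673 tags, and 3 reads, the floor, cover counting error only. The 8 columns name groups and not mice, so they served as 4 replicates per group without a sex term and are numbered as in the column names. Per the labels, each sample is a separate mouse. The tests were tried on simulated tags. There 100.0% of 4-fold changes and 30.0% of 2-fold rises were called at single peaks (94482 peaks), and 92.0% of 2-fold rises at gene sums (16386 genes). The simulation damped the differences between libraries and used a fixed spread, unlike the data. Its rates can be higher than those in the data, so an uncalled sum does not exclude a 2-fold change.

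Members and lists were chosen with earlier results of these data known. Named genes were 7 fixed ones, every called gene, the 3 largest vehicle promoter sums per family and genes with 3 or more called peaks. Named peaks were the 20 with the smallest p per direction, at most 3 per gene. Further called peaks of these and other genes were named after their values were seen. The partner list's alternatives were chosen after seeing the data.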

Additional observations from a re-analysis of the deposited data

Results flagged for a closer look

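In 9 of 200 groups of 4 libraries checked, the lowest or highest library stood apart from the other 3, and about 1 group in 20 is marked in this way when nothing differs. Vehicle library 3 was below the other vehicle libraries for 2 genes, at 73.64 tags for the gene and distal sums of Kcnip1 (others 94.16 to 96.57), at 118.56 for the gene sum of Kcnj16 (others 147.96 to 149.41) and at 58.14 for its promoter sum and promoter peak (others 76.36 to 79.05). The Kcnip2 promoter sum was 12.03 in IL-33 library 2, with the others at 25.37 to 26.38, and the Kcna3 distal minus promoter difference was 0.20 log2 units in that library, with the others at 0.84 to 0.91. The Kcnk13 peak at 57.7 kb had 2.94 tags in vehicle library 1 (others 1.25 to 1.53), and the exonic Kcnc2 peak 9.12 tags in vehicle library 2 (others 13.18 to 13.25). Without IL-33 library 2 the Kcna3 difference rose by 1.14, against 0.97 with it. The share of tags in peaks, 14.2% in IL-33 library 2 and 20.8% in vehicle library 3, was the lowest of each group, and its part in these values was not tested.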

How the results depend on the processing

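Calls of 29 of 40 named peaks held under every alternative that tested them, and no named peak turned its direction. The gene sums of Kcnh4, Kcnip1, Kcnk10, Kcnk2 and Kcnd3 stayed called in every alternative that gave them a value. Counts of calls depended on scaling. With median-ratio scaling 37 peaks were higher and 53 lower, 7 gene sums higher and 13 lower, 4 promoter sums lower, 9 distal sums higher and 13 lower, and 4 partner genes higher and 1 lower. Of all features it called 15.3% and 10.8% of peaks, 11.8% and 15.6% of gene sums, 12% of promoter sums lower, and 18% and 15.3% of distal sums. With quantile normalization the counts were 33 and 60 peaks, 10 and 12 gene sums, 9 and 15 distal sums, 4 and 3 differences, and 5 and 2 partner genes (higher first), against 13.5% and 12.9% of all peaks, 13.1% and 12.9% of all gene sums, 17.1% and 17.8% of distal sums and 17.7% and 13.2% of differences. edgeR with TMM sizes gave 39 and 55 peaks, 10 and 12 gene sums, 10 and 13 distal sums, and 7 and 1 partner genes, against 16.9% and 12.2% of all peaks, 15% and 11.5% of gene sums and 20% and 16% of distal sums. DESeq2 gave 43 and 56 peaks, 11 and 12 gene sums, 1 and 4 promoter sums, 10 and 14 distal sums, and 7 and 1 partner genes, against 17.5% and 13.1% of all peaks, 16.7% and 13.2% of gene sums, 8.11% and 6.93% of promoter sums and 20.4% and 17.5% of distal sums. Under quantile normalization the median log2 change of all features was -0.03 for gene sums and -0.01 for promoter sums, against -0.17 and -0.21 as deposited.

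edgeR with total tags gave 3 lowered gene sums and 4 raised and 4 lowered distal sums. Of all features it called 0.867% of gene sums lower, and 3.77% and 1.6% of distal sums higher and lower. Leaving out the lowest 25% of means gave 2 raised and 2 lowered gene sums and 2 raised and 0 lowered differences, with fewer genes tested. There 1.15% and 1.05% of all gene sums and 30.3% and 7.62% of all differences rose and fell. A pseudocount 4 times larger gave 3 lowered gene sums and 2 lowered distal sums (0.702% and 0.465% of all). Raised distal sums numbered 3 with 0.5 times the pseudocount or with a trended robust prior (3.35% and 3.32% of all). With no filter 2 promoter sums were higher (1.12% of all) and 3 differences lower (6.38% of all). Peaks within 100 kb alone gave 3 lowered gene sums (1.09% of all), since Kcnk2 and Kcnh7 have none. Distal peaks over 3 kb gave 4 raised differences (24.2% of all), with Kcna3 not tested and Kcnd1 not called. The cause of the other shifts was not tested.

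Leaving out 1 library gave 15 to 33 raised and 18 to 43 lowered peaks, 3 to 6 raised and 2 to 8 lowered gene sums, 0 raised and 0 to 1 lowered promoter sums, and 2 to 8 raised and 3 to 9 lowered distal sums. It gave 4 to 6 raised and 2 lowered differences, and 0 to 2 raised and 0 lowered partner genes. Of all features, 6.67 to 14.7% of peaks rose and 2.62 to 8.36% fell, as did 0.854 to 7.13% and 0.366 to 3.08% of gene sums. For promoter sums the ranges were 0.524 to 2.81% and 0.193 to 1.24%, and for distal sums 1.78 to 12.6% and 0.722 to 5.58%. For differences they were 20.9 to 25.4% and 5.08 to 7.49%. Without IL-33 library 2, 33 peaks, 6 gene sums, 8 distal sums and 2 partner genes were higher. In that fit 14.7% of all peaks, 7.13% of all gene sums and 12.6% of all distal sums were higher too. There were 20 lowered peaks when IL-33 library 3 was left out and 18 when vehicle library 1 or 2 was (2.66%, 2.65% and 2.62% of all peaks). Leaving out IL-33 library 4 gave 8 lowered gene sums (3.08% of all). IL-33 library 3 or vehicle library 1 or 2 gave 3 (0.366%, 0.439% and 0.427%), and vehicle library 4 gave 2 (0.421%). Lowered promoter sums numbered 0 without vehicle library 1, 2 or 4 (0.211% of all each time). Lowered distal sums numbered 9 when IL-33 library 4 was left out (5.58% of all). They numbered 3 for IL-33 library 3 or vehicle library 1 or 4 (0.722%, 0.798% and 0.75%). They numbered 4 for vehicle library 2 (0.819%), which also gave 4 raised differences (20.9%).

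Directions turned only for values that were not called. With quantile normalization, the gene sums turned to 0.017 for Kcnab3, 0.082 for Kcnd1, 0.074 for Kcnj10, 0.035 for Kcnk13 and 0.088 for Kcnma1. With median-ratio scaling, the gene sums turned to 0.023 for Kcnd1, 0.031 for Kcnj10, 0.052 for Kcnk13 and 0.091 for Kcnma1. Under edgeR with TMM, the gene sums turned to 0.080 for Kcnd1, 0.091 for Kcnj10, 0.11 for Kcnk13 and 0.153 for Kcnma1. Under edgeR with total tags, the gene sum turned to 0.069 for Kcnma1. With DESeq2, the gene sums turned to 0.081 for Kcnd1, 0.094 for Kcnj10, 0.113 for Kcnk13 and 0.156 for Kcnma1. With quantile normalization, the promoter sums turned to 0.031 for Kcnab3, 0.202 for Kcnj10 and 0.011 for Kcnq1ot1. With median-ratio scaling, the promoter sum turned to 0.078 for Kcnj10. Under edgeR with TMM, the promoter sums turned to 0.014 for Kcnab3, 0.209 for Kcnj10 and 0.019 for Kcnq1ot1. Under edgeR with total tags, the promoter sum turned to 0.053 for Kcnj10. With DESeq2, the promoter sums turned to 0.0104 for Kcnab3, 0.209 for Kcnj10 and 0.017 for Kcnq1ot1. With the larger pseudocount, the promoter sum turned to 0.0034 for Kcnj10. Over the fits with 1 library left out, gene sums that turned ran from -0.295 to 0.028 for Kcnab3, -0.189 to 0.114 for Kcnd1, -0.193 to 0.181 for Kcnj10, -0.118 to 0.335 for Kcnj2, -0.405 to 0.079 for Kcnk12, -0.201 to 0.168 for Kcnk13, -0.164 to 0.257 for Kcnma1, -0.309 to 0.015 for Kcnn3, -0.056 to 0.349 for Kcnn4 and -0.35 to 0.048 for Kcnq1ot1. Over the fits with 1 library left out, promoter sums that turned ran from -0.139 to 0.222 for Kcnj10, -0.356 to 0.087 for Kcnk12 and -0.38 to 0.059 for Kcnq1ot1. No paired analysis was possible because the groups share no replicate numbers in the labels.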

Other observations

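Some lowered peaks lay at genes whose sums were not called in the main test. Of all tested peaks, 4.99% were lowered. Kcnh2, an ether-a-go-go family gene, had 1 lowered intron peak (log2 change -1.05), Kcnt1, of a sodium-activated channel, 1 (-0.97), Kcna6 1 between genes (-0.95), and Kcng2, a voltage-gated subunit gene that forms channels only with other subunits, 1 of 12 tested (-1.07). Of 18 alternatives, 3 ended the Kcnh2 call, 6 that of Kcnt1, 8 that of Kcna6 and 6 that of Kcng2. Kcnj10, of the inward rectifier that buffers potassium in astrocytes, had 1 raised peak in an intron 11.4 kb from the start site, at 33.0, 15.6, 26.2 and 36.6 tags in IL-33 libraries and 14.7, 19.2, 9.12 and 12.1 tags in vehicle libraries (log2 change 0.94, adjusted p = 0.043, limma). Its groups overlapped, and its call ended in 8 of 18 alternatives, among them leaving out IL-33 library 1, 3 or 4 or vehicle library 1, 3 or 4. The gene sum differed by -0.07 on the log2 scale (adjusted p = 0.94). Of the 5 peaks assigned to Kcnj1 that lie inside Fli1, 0 were called in either direction.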
